A study of Rattus norvegicus with 6 samples.

Results

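The 47 genes described here encode the machinery that copies DNA in S phase and the factors that supply and time it. They were listed by name and matched by symbol: 46 had a row among the 24360 gene rows, and E2f1 was not analysed here. Of the 46, 45 passed the filter on low counts and were tested, and Rrm2 did not pass. RNA was sequenced from H9c2, a wild-type line derived from embryonic rat heart, in 2 groups of 3 samples. The control group (Ctrl) carries the treatment label NC, and the other group (Rb2) is labelled ginsenoside Rb2, a saponin of ginseng. A single protocol text stands for all samples. It names Rb2 for 48 h, 4 to 6 h without glucose and oxygen, then reoxygenation for 12 h, and does not say which of these steps the controls went through. Whether replicates came from separate cultures is not stated. The p-values therefore speak only of the scatter among these 6 samples, part or all of which may be technical.

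Replication starts when the origin recognition complex (ORC), Cdc6 and Cdt1 load the MCM ring onto DNA, and geminin blocks a repeat of that loading. Cdc45 and the GINS complex turn the ring into an active helicase. Polymerase alpha-primase lays down primers, polymerases delta and epsilon extend them on the sliding clamp PCNA, replication factor C (RFC) loads the clamp, and replication protein A (RPA) covers single strands. Fen1 and Lig1 join the pieces of the lagging strand. Many of these genes are targets of E2F transcription factors, which cyclin E and its kinase help to release at the G1/S boundary. H9c2 cells are kept in culture as dividing myoblasts.

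Total counts ran from 5193077 to 8793390, and the 46 genes took from 0.229% to 0.305% of them. Levels below are counts scaled to library size (CPM) with TMM factors. Before those factors, 3 counts, the limit that a count of 0 allows for counting error only, correspond to 0.341 to 0.578 CPM. Ctrl replicate 1 stood apart on the first principal component of all tested genes, at -47.0 against -18.1 and 0.56 for the other controls and 18.1 to 23.8 for the Rb2 samples. It held the lowest of the 6 values in 27 of the 45 tested genes, while it was lowest in 28.2% of all genes tested. Averaged over counts, transcripts were 1172, 1174 and 1228 bases long in Ctrl replicates 1 to 3 and 1244, 1255 and 1252 bases in Rb2. With an offset for gene length, Rfc4 and Rpa3, the genes called below, still passed the test (adjusted p of 0.0493 and 0.0199). The label calls the cells embryonic cardiomyocytes. Of 14 cardiac muscle markers 12 had a row and 4 were tested, with Tbx5 at 0 in all samples. The 4 tested were Tnnt2 (Ctrl mean 52.9 CPM), the factors Gata4 (6.48) and Nkx2-5 (2.38), and Mybpc3 (2.47). Myh6 had 6 to 10 counts in every sample, while Myh7, Actn2, Tnni3, Myl2 and Myl7 had from 0 to 2. The summed cardiac level was 58.5 to 78.3 CPM in Ctrl and 57.0 to 66.0 CPM in Rb2. Among 12 skeletal muscle and myoblast markers, 9 with a row, the sum was 32.3 to 41.8 and 39.0 to 45.6 CPM, with Myf6 at 0. The 3 tested, Myod1, Myog and Des, had Ctrl means of 12.4, 9.72 and 12.2 CPM. Myh3, Tnni1, Tnnt1, Ckm and Chrna1 had at most 9 counts in a sample. Fibroblast and smooth muscle markers (8 of 8 tested) summed to 6820 to 7191 and 6781 to 7206 CPM. In 3 of them the groups were wholly apart. Over all genes tested, Rb2 lay wholly above Ctrl in 15.0% and wholly below in 12.2%. The contractile genes Acta2 and Tagln were lower in Rb2, at 1017 to 1236 against 904 to 912 CPM and 785 to 813 against 649 to 662 CPM (adjusted p of 0.0828 and 0.0655). The collagen gene Col3a1 was higher, at 843 to 987 against 1081 to 1242 CPM (adjusted p = 0.0546), and the part of these differences in the results was not tested. No tested marker of these lists was called. Of endothelial and leukocyte markers 0 passed the filter, so none could be called, and the 1 epithelial marker tested, Krt8, was not called.

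The comparison asks which of these genes differed between Rb2 and Ctrl samples. Rfc4, a small subunit of the clamp loader, and Rpa3, the smallest subunit of RPA, rose in Rb2 by 1.35-fold and 1.40-fold, none fell, and 43 did not pass the test. A gene was called where the Benjamini-Hochberg adjusted p of edgeR's quasi-likelihood test was under 0.05. Over all 11551 genes tested, 2.70% were called, 1.90% higher and 0.805% lower, and nothing particular to replication genes is read from 2 calls in 45. At an unadjusted p under 0.05, 10 of the 45 were higher and none lower, together 22.2%, against 20.0% of all genes tested (11.8% higher and 8.17% lower). In 12 of the 45 every Rb2 value lay above every Ctrl value and in 2 every one lay below, against 15.0% and 12.2% of all genes. Of the 8426 known genes tested, 21.8% had an unadjusted p under 0.05, 18.3% lay wholly above and 10.4% wholly below. The median log2 fold change of the 45 was 0.08, beside -0.02 over all genes tested and 0.04 over the known genes. Within 0.25 of 0 were 27 of the 45, as were 50.1% of all genes. The count of 2 became 6 without Ctrl replicate 1, 5 without Ctrl replicate 3, and 0 without Ctrl replicate 2 or without any 1 of the Rb2 samples. Calls over all genes also changed widely when 1 sample was left out, by the range given in the last section. The changed counts are therefore not read as particular to replication genes. The median turned to -0.04 without Ctrl replicate 1 and to -0.05 with the length offset, where all genes were at 0.01 and -0.04. The sign of 20 of the 45 turned under at least 1 alternative, and each of these was within 0.18 of 0.

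**Figure D1:**
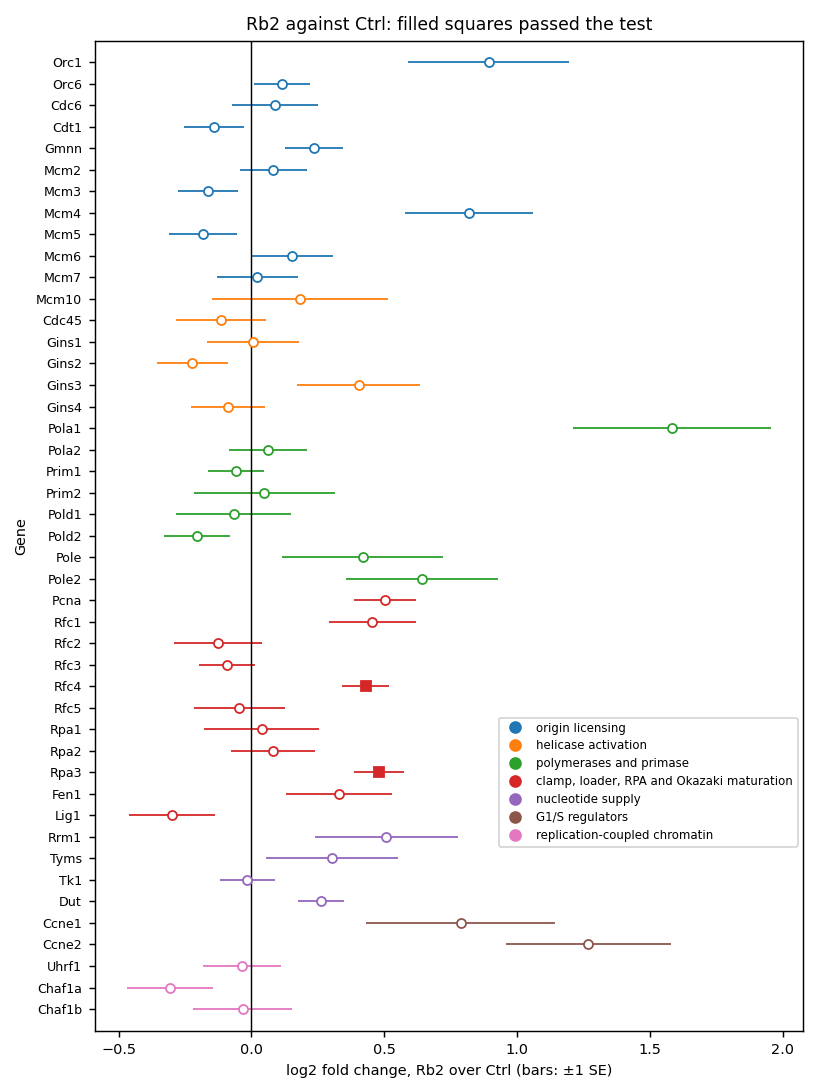
Log2 fold change of Rb2 over Ctrl (x axis) for the 45 tested genes (y axis), coloured by role; points are edgeR estimates and bars are 1 SE. Filled squares mark Rfc4 and Rpa3, the 2 genes that passed the test, and the open points farthest to the right are Pola1 at 1.58 and Ccne2 at 1.27.

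Promoter sequence was searched for the letters that E2F factors bind, since E2F control is what many of these genes are known to share. The windows are the 250 bases before the gene start in the RefSeq table of assembly GRCr8, which had an entry for 39 of the 47 genes. The E2F search took the letters TTCGCGC as one form, with TTGGCGC as another and with TTCCCGC as the last. Exact matches on either strand were in 14 of 39 windows, 35.9%, against 6.04% of all 33469 windows of that length. CCAAT, the NF-Y motif, was in 56.4% against 34.0%, and the cell cycle homology region, as TTTGAA or in its form TTCGAA, in 15.4% against 17.4%. Matches may overlap, as the pair of E2F matches 212 and 209 bases before the start of Mcm5 does. A match describes letters only. Of 8 genes with a window and an Rb2 group wholly above the Ctrl group, 2 held an E2F match. The windows below are those of Rfc4 (called; chr11:91254023-91254272, strand +), of Pcna (chr3:139955821-139956070, strand -) and Pola1 (chrX:62342356-62342605, strand -), which other settings called, and of Mcm5 (chr19:13488563-13488812, strand +), an abundant gene that did not pass. They are written in the direction of the gene, with matches to any of these motifs in capitals.
Rfc4: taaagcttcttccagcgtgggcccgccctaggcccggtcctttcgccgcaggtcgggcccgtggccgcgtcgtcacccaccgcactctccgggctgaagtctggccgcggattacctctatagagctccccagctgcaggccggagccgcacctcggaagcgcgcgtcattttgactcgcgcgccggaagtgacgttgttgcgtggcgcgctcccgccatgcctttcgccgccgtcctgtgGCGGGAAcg
Pcna: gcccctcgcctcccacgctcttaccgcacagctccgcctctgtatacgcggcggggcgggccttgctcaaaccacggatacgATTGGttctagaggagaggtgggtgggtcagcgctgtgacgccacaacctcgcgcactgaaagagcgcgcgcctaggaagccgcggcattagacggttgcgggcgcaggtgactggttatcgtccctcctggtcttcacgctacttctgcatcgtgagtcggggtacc
Pola1: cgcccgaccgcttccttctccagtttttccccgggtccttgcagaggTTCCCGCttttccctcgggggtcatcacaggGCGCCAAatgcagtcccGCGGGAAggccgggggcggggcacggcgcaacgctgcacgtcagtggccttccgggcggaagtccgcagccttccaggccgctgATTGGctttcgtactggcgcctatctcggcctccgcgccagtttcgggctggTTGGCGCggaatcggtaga
Mcm5: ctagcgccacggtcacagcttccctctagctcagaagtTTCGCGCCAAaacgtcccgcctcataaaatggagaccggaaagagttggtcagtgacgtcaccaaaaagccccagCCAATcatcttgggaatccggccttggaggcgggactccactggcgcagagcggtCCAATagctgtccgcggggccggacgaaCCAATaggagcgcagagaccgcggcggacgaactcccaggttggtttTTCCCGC
The Rfc4 window has a single E2F match, 9 bases before the start, and no CCAAT. Pola1 has 4 E2F matches and Mcm5 has 3, while Pcna has none of these E2F letters and 1 CCAAT.

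The clamp, its loader and the single-strand binder held both calls. Rfc4 (ENSRNOG00000001816) stood at 213, 241 and 232 CPM in Ctrl and at 325, 301 and 298 CPM in Rb2. All Rb2 values were above all Ctrl values, with a log2 fold change of 0.43 (SE 0.09, n = 3 each, edgeR adjusted p = 0.0423). The other small loader subunits did not pass. Rfc2, Rfc3 and Rfc5, which sit beside Rfc4 in the loader, were at -0.13, -0.09 and -0.05 on the log2 scale (adjusted p of 0.716, 0.674 and 0.912). Rfc1, the large subunit, was at 10.2, 10.3 and 9.78 CPM in Ctrl and at 13.9, 13.9 and 13.8 CPM in Rb2. Its groups were apart, but with 56 to 84 counts per sample it did not pass (log2 fold change 0.46, SE 0.16, adjusted p = 0.157).

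Rpa3 (ENSRNOG00000008309) stood at 105, 96.9 and 95.9 CPM in Ctrl and at 144, 136 and 136 CPM in Rb2. The groups did not overlap, with a log2 fold change of 0.48 (SE 0.09, n = 3 each, edgeR adjusted p = 0.0369). Its partners Rpa1, the main DNA-binding subunit, and Rpa2, the subunit phosphorylated at damaged forks, were at 0.04 and 0.08 on the log2 scale (adjusted p of 0.942 and 0.816). Rpa1 stood at 27.9, 49.2 and 51.2 CPM in Ctrl and at 47.9, 41.6 and 41.6 CPM in Rb2, with Ctrl replicate 1 as the lowest value. Without that sample its log2 fold change was -0.18 (adjusted p = 0.333), and its sign also turned under upper-quartile scaling. Whether the called subunits differed from their partners in fold change was not tested.

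Both calls held without Ctrl replicate 1 (adjusted p of 0.00317 for Rfc4 and 0.00114 for Rpa3) and without Ctrl replicate 3 (0.0285 and 0.0353). Without Ctrl replicate 2, or Rb2 replicates 1, 2 and 3 in turn, the adjusted p of Rfc4 was 0.146, 0.154, 0.199 and 0.170, and that of Rpa3 was 0.158, 0.134, 0.198 and 0.167. Upper-quartile scaling gave 0.0649 and 0.0576, known genes alone gave 0.0575 for each, and limma-voom gave 0.0513 for Rfc4. RefSeq names copies or pseudogenes of 14 of the 46 genes, Rfc4, Rpa3, Pcna and Mcm4 among them, and reads shared between copies could shift these counts.

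Pcna, the clamp itself, was at 61.2, 71.2 and 78.6 CPM in Ctrl and at 99.7, 102 and 97.0 CPM in Rb2. The groups did not overlap and the gene did not pass (log2 fold change 0.50, SE 0.12, adjusted p = 0.0566). DESeq2 put it past the threshold (adjusted p = 0.0308), as did leaving out Ctrl replicate 1 (0.00975), whose Pcna value was the lowest. Of 19 alternatives, 9 called Pcna and the others did not. Fen1, the flap nuclease, was at 28.3, 34.7 and 38.8 CPM in Ctrl and at 30.8, 48.9 and 47.8 CPM in Rb2. Rb2 replicate 1 lay inside the Ctrl range (log2 fold change 0.33, SE 0.20, adjusted p = 0.390), and Lig1, the ligase, was at -0.30 on the log2 scale (adjusted p = 0.328). Of the 11 genes of this group, 2 were called higher, 7 had a fold change above 0, and 4 had Rb2 wholly above Ctrl. Over all genes tested, 1.90% were called higher, 5547 of 11551 had a fold change above 0, and 15.0% had Rb2 wholly above Ctrl.

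**Figure D2:**
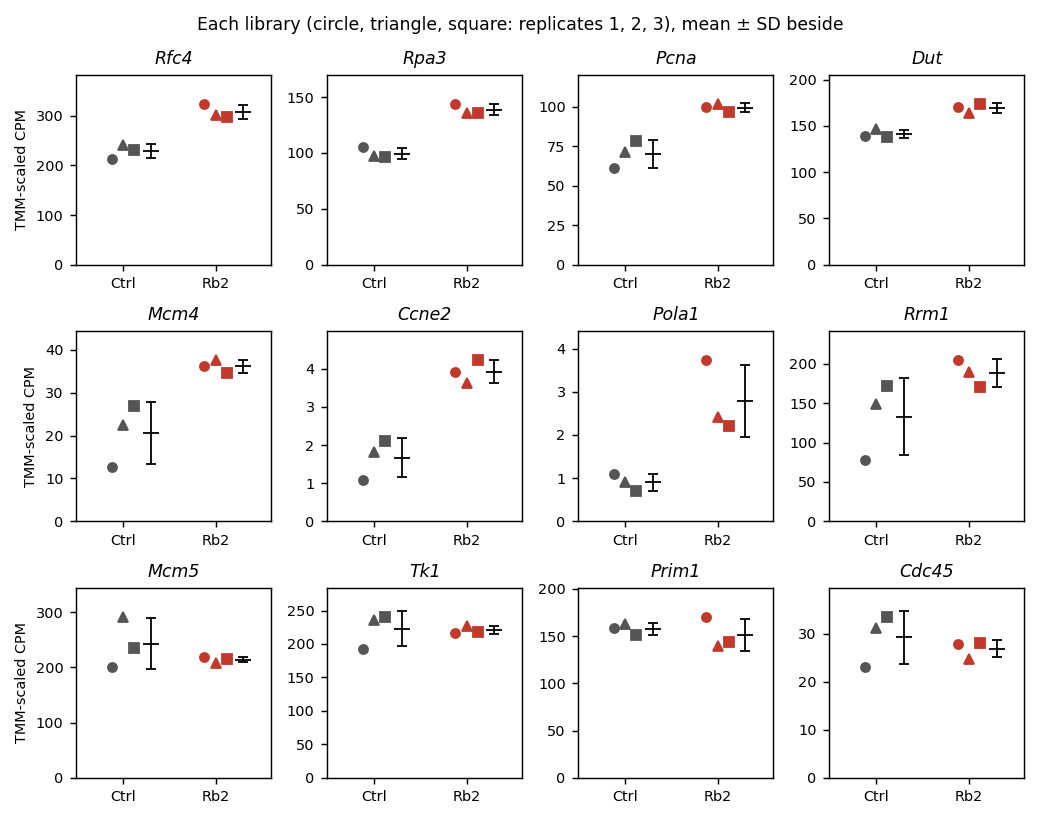
CPM (y axis, from 0) in each Ctrl and Rb2 library for 12 genes, with replicates 1, 2 and 3 as circle, triangle and square and the mean ± SD beside them. Rfc4, Rpa3, Pcna, Dut, Mcm4, Ccne2 and Pola1 show groups that do not overlap, while Rrm1, Mcm5, Tk1, Prim1 and Cdc45 overlap.

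No licensing gene was called. The median log2 fold change of these 11 genes was 0.09, and 9 were within 0.25 of 0. Mcm4, a subunit of the helicase ring, was at 12.7, 22.4 and 26.9 CPM in Ctrl and at 36.3, 37.6 and 34.6 CPM in Rb2. The groups did not overlap, but the controls spread over a wide range (log2 fold change 0.82, SE 0.24, adjusted p = 0.102). Without the low Ctrl replicate 1 the log2 fold change was 0.57 with an adjusted p of 0.0177, and DESeq2 gave 0.0360. Of 19 alternatives, 4 called Mcm4 and the others did not. The other ring subunits overlapped between groups. Mcm5 was at 201, 292 and 236 CPM in Ctrl and at 218, 208 and 215 CPM in Rb2 (log2 fold change -0.18, SE 0.13, adjusted p = 0.467). The Rb2 values lay within the Ctrl range. Mcm2, Mcm3, Mcm6 and Mcm7 ran from -0.16 (Mcm3) to 0.15 (Mcm6) on the log2 scale.

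Among the loading factors, Orc1, the ATPase subunit of ORC, had 11, 8 and 10 counts in Ctrl and 18, 14 and 15 in Rb2. On the CPM scale that was 1.33, 1.45 and 1.75 against 3.20, 2.43 and 2.76, with no overlap (log2 fold change 0.89, SE 0.30, adjusted p = 0.137). Gmnn, which encodes geminin, was at 51.9, 49.2 and 50.1 CPM in Ctrl and at 62.8, 57.9 and 57.6 CPM in Rb2. All Rb2 values were higher, by 0.24 on the log2 scale (adjusted p = 0.265). Orc6, another ORC subunit, also had groups apart, with a log2 fold change of 0.12 (adjusted p = 0.582). Cdt1 and Cdc6, the partners that bring in the ring, were at -0.14 and 0.09 with overlapping groups.

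Helicase activators lay around 0. Of the 6, 3 were above and 3 below 0, with a median of -0.04 and no call. Gins3, a GINS subunit, had the smallest p, at 8.62, 12.5 and 16.2 CPM in Ctrl and at 17.6, 16.3 and 15.1 CPM in Rb2. Its highest Ctrl value lay among the Rb2 values (log2 fold change 0.40, SE 0.23, adjusted p = 0.362). Gins4, the GINS subunit with the highest level per length, was at 49.9, 46.1 and 48.2 CPM in Ctrl and at 48.9, 49.2 and 37.3 CPM in Rb2. The groups overlapped (log2 fold change -0.09, adjusted p = 0.766). In Gins2 all Rb2 values were below all Ctrl values, at 34.8, 31.6 and 32.1 CPM in Ctrl against 29.5, 29.3 and 25.8 CPM in Rb2 (log2 fold change -0.22, SE 0.13, adjusted p = 0.390). Cdc45, which joins the ring and GINS, was at 23.1, 31.1 and 33.5 CPM in Ctrl and at 27.9, 24.8 and 28.0 CPM in Rb2. Its groups overlapped, with a log2 fold change of -0.11 (adjusted p = 0.754). Cdc45 and Mcm5 were called lower when the length offset was combined with leaving out Ctrl replicate 1, a choice made after seeing the data, at -0.56 and -0.44 (adjusted p of 0.0128 and 0.0341). Mcm10, which binds the active helicase, was at 0.18 (SE 0.33), and Gins1, the remaining GINS gene, at 0.01 (SE 0.17).

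Among polymerase and primase genes the highest estimate was in Pola1, the catalytic subunit of polymerase alpha, which had 9, 5 and 4 counts in Ctrl and 21, 14 and 12 in Rb2. In CPM these were 1.09, 0.904 and 0.699 against 3.74, 2.43 and 2.21, with groups apart. The log2 fold change was 1.58 (SE 0.37, adjusted p = 0.0580), and it passed without Ctrl replicate 1 (1.79, adjusted p = 0.0392) and with no filter on counts (adjusted p = 0.0440). Of 17 alternatives, 5 called Pola1 and the others did not. Of its complex partners, Pola2, the regulatory subunit, was at 0.06 and Prim2, the large primase subunit, at 0.05. Prim1, the catalytic primase subunit, was at 159, 163 and 151 CPM in Ctrl and at 171, 140.0 and 144 CPM in Rb2. The groups overlapped (log2 fold change -0.06, SE 0.10, adjusted p = 0.800). Pole2, a subunit of polymerase epsilon, had 18, 22 and 22 counts in Ctrl and 28, 33 and 25 in Rb2. Scaled to CPM its groups did not overlap (log2 fold change 0.64, adjusted p = 0.248). Those of the catalytic gene Pole did (0.42), and the polymerase delta genes Pold1 and Pold2 were at -0.07 and -0.21.

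In nucleotide supply the smallest p was in Dut, which encodes the enzyme that keeps uracil out of DNA. Dut was at 139, 147 and 138 CPM in Ctrl and at 171, 164 and 174 CPM in Rb2. All Rb2 values were higher, by 0.26 on the log2 scale (SE 0.09, adjusted p = 0.134), and without Ctrl replicate 1 the adjusted p was 0.0379. Of 19 alternatives, 3 called Dut and the others did not. Tk1, the thymidine kinase of S phase, was at 193, 235 and 241 CPM in Ctrl and at 217, 227 and 218 CPM in Rb2. The Rb2 values lay within the Ctrl range (log2 fold change -0.01, SE 0.10, adjusted p = 0.955). Rrm1, the large subunit of ribonucleotide reductase, was at 77.8, 148 and 172 CPM in Ctrl and at 205, 190.3 and 170.0 CPM in Rb2. The low value is again Ctrl replicate 1, and without it the log2 fold change went from 0.51 (adjusted p = 0.344) to 0.25 (adjusted p = 0.114). Rrm2, the small subunit, had 34 counts in Ctrl replicate 1 and 4 to 8 in the other 5 samples, and was not tested. Ctrl replicate 1 was thus lowest for 1 subunit of this enzyme and highest for the other. Tyms, thymidylate synthase, was at 0.30 (SE 0.25).

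Both cyclin E genes had estimates above 0. Ccne2 had 9, 10 and 12 counts in Ctrl and 22, 21 and 23 in Rb2, or 1.09, 1.81 and 2.10 CPM against 3.92, 3.64 and 4.23 CPM. The groups were apart (log2 fold change 1.27, SE 0.31, adjusted p = 0.0639), and the adjusted p was 0.0450 without Ctrl replicate 3 and 0.0705 without Ctrl replicate 1. Of 17 alternatives, 3 called Ccne2 and the others did not. Ccne1 was at 17.5, 14.1 and 10.7 CPM in Ctrl and at 12.1, 28.1 and 33.3 CPM in Rb2. Rb2 replicate 1 lay within the controls and the other Rb2 samples were above them (log2 fold change 0.79, SE 0.36, adjusted p = 0.266). Ints8 overlaps Ccne2 in RefSeq, as protein-coding neighbours overlap 7 of the 46 genes, and reads from such pairs may not be separable.

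Genes of replication-coupled chromatin had estimates below 0 and no call. Chaf1a, the large subunit of the histone chaperone CAF-1, was at 16.1, 14.6 and 17.3 CPM in Ctrl and at 13.3, 13.3 and 12.1 CPM in Rb2. All Rb2 values were lower, but the gene did not pass (log2 fold change -0.31, SE 0.16, adjusted p = 0.319). Its partner Chaf1b was at 24.3, 37.2 and 39.0 CPM in Ctrl and at 32.0, 34.7 and 31.1 CPM in Rb2. The groups overlapped (log2 fold change -0.03, adjusted p = 0.944), and its sign turned with library size only. Uhrf1, which guides maintenance methylation to new DNA, was at -0.03 (SE 0.15).

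**Figure D3:**
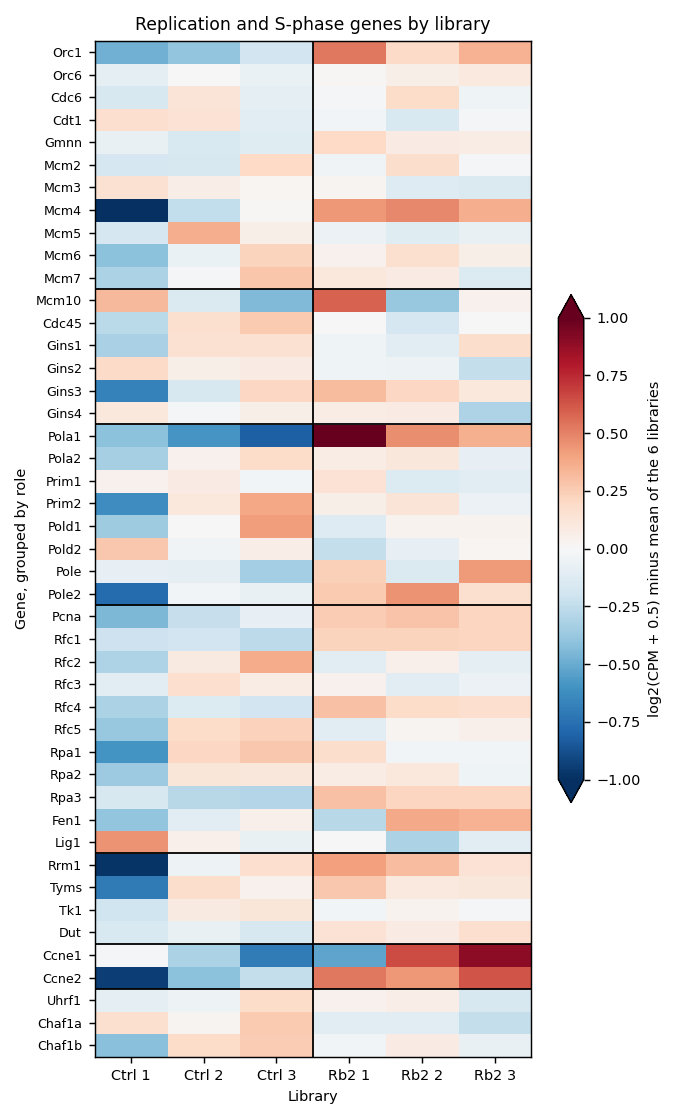
log2(CPM + 0.5) minus the mean of the 6 libraries (colour, limited to -1 and 1) for the 45 tested genes in rows, grouped by role with black lines, and the libraries in columns. Ctrl 1 has the lowest value in 27 of 45 rows, and the rows of Pola1, Pcna, Rfc4, Rpa3 and Ccne2 change from blue to red between the groups. In the row of Mcm4, Ctrl 3 is close to the mean of the row.

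Subunits of the same complex were present at different levels per length, here CPM per kilobase of the deposited gene length, as means of the 3 Ctrl samples. In the helicase ring, Mcm5 was highest at 76.6, followed by Mcm7 at 35.7, Mcm2 at 30.1, Mcm6 at 23.9, Mcm3 at 21.2 and Mcm4 at 6.20. Mcm4 was also the lowest of the ring in Rb2, at 10.8 on the same scale. In the clamp loader Rfc4 was at 155, Rfc3 at 89.4, Rfc2 at 44.6, Rfc5 at 20.3 and Rfc1 at 2.08. In RPA, Rpa3 was at 155, with Rpa2 and Rpa1 close together at 15.8 and 13.8. So the called genes had the highest levels of their complexes on this scale, and of all 46 genes. In CPM not divided by length they stayed highest in their complexes but not of all genes. There the Ctrl mean of Mcm5, at 243, was above that of Rfc4, at 228, and Tk1, at 223, was above Rpa3, at 99.3. The catalytic polymerase genes Pola1, Pole and Pold1 were at 0.169, 0.286 and 3.62, against 15.5 for Pola2, 1.95 for Pole2 and 40.9 for Pold2. The primase genes went the other way, with the catalytic Prim1 at 75.9 and Prim2 at 4.72. Genes of other roles also lay below Pold1, such as Orc1 at 0.492, Ccne2 at 0.550 and Mcm10 at 0.848. Rrm2 was at 1.63 and Rrm1 at 34.1. Whether a gene's count grows with its length in these libraries was not tested, and long genes come out lower on this scale if it does not.

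Across the 45 genes, Spearman's rho between the Ctrl level per length and the log2 fold change was -0.32, and between length and fold change -0.03. It is a description only, since the points share 6 libraries and the Ctrl level enters both axes. Of the 22 genes below the median level 17 had a fold change above 0 (median 0.24), against 11 of the 23 others (median -0.01). In each class 6 genes had all Rb2 values above all Ctrl values. Over all genes tested, 5547 of 11551 had a fold change above 0, and 15.0% had all Rb2 values above all Ctrl values. Over 8426 known genes tested, rho between length and fold change was 0.11.

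**Figure D4:**
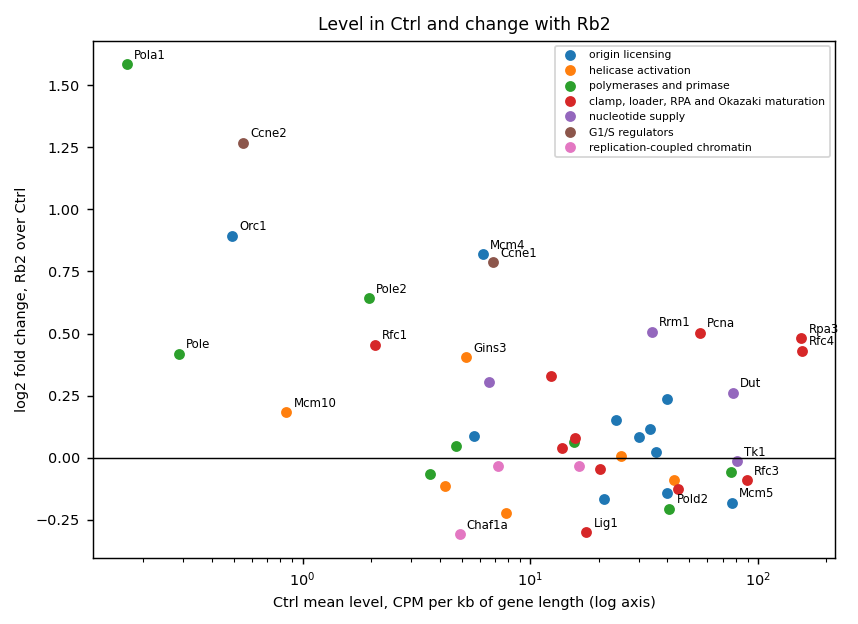
Mean Ctrl level in CPM per kb of gene length (x axis, log scale) against the log2 fold change of Rb2 over Ctrl (y axis) for the 45 tested genes, coloured by role. Pola1, Ccne2 and Orc1, with few counts, sit at the left with high estimates, and Rfc4 and Rpa3 are the points farthest to the right.

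Other genes of the pathway, from lists chosen by role, gave the calls below. Over all genes tested 1.90% were called higher and 0.805% lower, and nothing particular to the pathway is read from these calls. Of 23 other fork and origin genes tested none was called with edgeR, with a median of 0.28 and Dscc1, a subunit of an alternative clamp loader, nearest to the threshold (log2 fold change 0.55, adjusted p = 0.0704). Of 14 genes of histone supply and chromatin copying, Hat1, a histone acetyltransferase, rose by 0.64 on the log2 scale (adjusted p = 0.0482) and 13 did not pass. None of 18 genes of deoxynucleotide metabolism was called with edgeR (median -0.01), the nearest being Cmpk1, a nucleotide kinase, at 0.86 (adjusted p = 0.0737). None of 28 genes of G1/S control was called with edgeR (median 0.07), the nearest being Ccna2, which encodes cyclin A, at 1.09 (adjusted p = 0.0576). Of 16 genes of the fork checkpoint and homologous repair, Smc6, part of a complex that guards stalled forks, rose by 0.82 (adjusted p = 0.0479), with a median of 0.40. Neither call held without Ctrl replicate 2 (adjusted p of 0.151 for Hat1 and 0.176 for Smc6) or without any 1 of the Rb2 samples (0.166 to 0.204 and 0.0945 to 0.246), and that of Hat1 did not hold without Ctrl replicate 3 (0.0537). Both were also lost with RLE and upper-quartile scaling, limma-voom, the length offset and known genes only, at adjusted p of 0.0508 to 0.0637 for Hat1 and 0.0503 to 0.0735 for Smc6. At an unadjusted p under 0.05, where 20.0% of all genes lie, the 5 lists had 6 (26.1%), 6 (42.9%), 3 (16.7%), 5 (17.9%) and 7 genes (43.8%) in the order given.

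Mitosis genes, the class nearest in the cell cycle, are set beside these. Of 27 tested, 6 rose (Top2a, Nusap1, Kif23, Ndc80, Bub1 and Tpx2, at log2 fold changes of 0.77 to 1.62) and none fell, with a median of 0.36, 12 with all Rb2 values above all Ctrl values, and 11 (40.7%) at an unadjusted p under 0.05. The replication genes had 2 of 45, a median of 0.08, 12 of 45, and 10 (22.2%). Over all genes tested 1.90% were called higher, 15.0% had Rb2 wholly above Ctrl, and 20.0% had an unadjusted p under 0.05. None of the 6 calls held without Ctrl replicate 2 or without Rb2 replicate 2 or 3. That of Top2a alone held without Rb2 replicate 1, and it alone held with the replicate number as a block. Those of Ndc80, Bub1 and Tpx2 were lost with the length offset (adjusted p of 0.0592, 0.0677 and 0.0689) and with known genes only. That of Tpx2 was also lost with RLE and upper-quartile scaling, and those of Tpx2 and Bub1 with limma-voom. Whether the sets differ was not tested. In bulk RNA, more cells in a phase of the cycle, or of a type, and more RNA of these genes per cell cannot be told apart.

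The transcript table held 150 transcripts of these genes, 96 of them new models of the authors, and 78 were tested. None was called with edgeR, as in all 16679 transcripts tested (0.00%). In simulated data the edgeR transcript test recovered 11% of 2-fold and 43% of 4-fold changes, so real changes could go uncalled. Of the 78, 12 had an unadjusted p under 0.05, which is 15.4% against 13.8% of all, and DESeq2 called 5. The most abundant Rfc4 model (ONT.4351.6, 1216 bases) was at 206, 219.6 and 208 CPM in Ctrl and 307, 278 and 279.7 CPM in Rb2. The groups did not overlap (log2 fold change 0.45, SE 0.08, adjusted p = 0.147). This model made up 91.7% ± 2.71 of the gene in Ctrl samples and 93.3% ± 1.30 in those given Rb2 (SD, n = 3 each), while the annotated Rfc4-201 had counts in a single sample. The annotated Rpa3-201 took 97.4% and 97.9% of its gene, and its log2 fold change was 0.48 with an adjusted p of 0.147.

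Cdt1 did not pass as a gene, and its transcripts took different shares. Model ONT.8850.3 took 92.0%, 98.7% and 87.6% of the Cdt1 counts in Ctrl and 78.9%, 56.2% and 52.5% in Rb2, with groups apart. The annotated Cdt1-201 took 0.253%, 1.34% and 12.4% in Ctrl and 2.34%, 41.5% and 47.5% in Rb2. It had 2, 7 and 56 counts against 11, 184 and 218, so Rb2 replicate 1 lay within the controls. The model was not called by edgeR (log2 fold change -0.72, SE 0.21, adjusted p = 0.233), DESeq2 called it lower (adjusted p = 0.0493), and the usage test of Cdt1 gave an unadjusted p of 0.171. A Chaf1a model of 389 bases (ONT.18323.3) was at 5.07, 2.90 and 3.15 CPM in Ctrl and 1.78, 1.57 and 1.85 CPM in Rb2. All Rb2 values were lower, and it was not called (adjusted p = 0.240).

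Dut model ONT.11400.10, named after its values were seen, took 48.2%, 28.4% and 27.7% of the gene in Ctrl and 50.2%, 49.2% and 50.4% in Rb2. Ctrl replicate 1 was near the Rb2 samples, and without it this transcript was the 1 called by edgeR (log2 fold change 1.08, adjusted p = 0.0273). Transcript usage, the share of each transcript within its gene, was tested in 20 of these genes and called in none, against 0.417% of the 3361 genes tested. In simulated data the usage test recovered 1% of 2-fold and 10% of 4-fold changes, so shares could differ without a call. Rfc4 alone had an unadjusted p under 0.05, as had 3.36% of all, and limma-voom also called none of the 20. Mcm2, the next by p, was called without Rb2 replicate 2 (adjusted p = 0.00931). Its main model ONT.13194.2 took 66.9%, 57.3% and 56.8% of the gene in Ctrl and 62.4%, 65.5% and 68.2% in Rb2, which overlap.

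**Figure D5:**
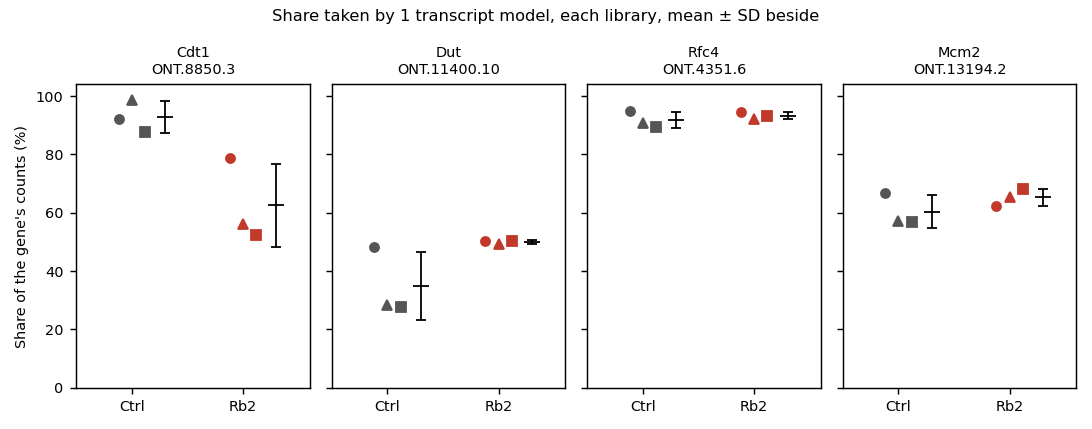
Share of the gene's counts (y axis, percent) taken by 1 transcript model of Cdt1, Dut, Rfc4 and Mcm2 in each library, with replicates 1, 2 and 3 as circle, triangle and square and mean ± SD beside. The Cdt1 model lies lower in every Rb2 library than in any Ctrl library, the Dut model lies higher with Ctrl replicate 1 close to the Rb2 libraries, and the other models overlap.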

How the data were processed

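RNA was measured in 3 Ctrl and 3 Rb2 samples. In the deposited tables, genes and transcripts carry whole-number counts and lengths in bases, and another table holds CPM that the authors made by scaling counts to the column total, per the file headers and the values. The submitters' processing notes name HISAT2, DESeq2 and mm10 without roles, while gene identifiers are rat ones. Neither the counting step nor the annotation is given in the sources used here. A further 18 per-sample columns in each table fitted no label here and were left out. Genes, transcripts and usage (diffSpliceDGE) were fitted on the whole tables with edgeR 4.0.16 in R 4.3.3 (TMM, filterByExpr, robust quasi-likelihood, group as the only term), with Benjamini-Hochberg adjustment over all features. SE is the fold change over the root of its F statistic. Alternatives used other edgeR scalings and filters, DESeq2 1.42.0, limma 3.58.1, a length offset (loess, span 0.5), known genes only, the replicate number as a block, and each sample left out. The fits were tested on simulated data with 2-fold and 4-fold changes. Of these, the gene test recovered 50% and 86%, the transcript test 11% and 43%, and the usage test 1% and 10%. The genes and lists were chosen with earlier results of these data known. Named in every sample are called genes, those another setting called, and in each role group the gene with the smallest p and the gene with the highest level per length; from the other lists, called genes or the smallest p. Orc1, Gmnn, Gins2, Pole2, Rfc1, Rrm1, Rpa1, Fen1 and Rrm2 were added after their values were seen. In the lists, 5 genes matched no row.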

Additional observations from a re-analysis of the deposited data

How the results depend on the processing

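Beside the 2 genes called, 0 were called with upper-quartile scaling, known genes only or an adjusted p under 0.01, 1 with limma-voom, 4 with no filter, DESeq2 or limma on log2(CPM + 0.1), 5 at an adjusted p under 0.10, and 6 with library size only or limma on log2(CPM + 1). Leaving out 1 sample gave 0 to 6. The length offset with Ctrl replicate 1 left out, an alternative chosen after seeing the data, gave 6 (4 higher, 2 lower) and a median of -0.11. The fit with the replicate number as a block gave 0. The values showed no pairing by replicate number. Deviations from the group means correlated at -0.07, -0.06 and -0.01 for numbers 1 to 3, and no sample correlated best with its own number. With 3 samples a group this cannot exclude pairing. The cause of these changes was not tested. Of the 45 genes, 25 kept their sign in every alternative that gave them a value (18 above 0, 7 below), which was 19 alternatives, or 17 for Orc1, Pola1, Pole, Pole2 and Ccne2. The sign of the 20 others, within 0.18 of 0, turned at least once, 14 of them given by fold change alone or within a range (Cdc6, Mcm2, Mcm6, Mcm7, Mcm10, Gins1, Pola2, Prim2, Pold1, Rfc2, Rfc3, Rfc5, Rpa2 and Uhrf1). Of the genes given in every sample, these crossed 0. Cdc45, at -0.11, turned to 0.00815 with limma on log2(CPM + 1), 0.00910 with limma on log2(CPM + 0.1); it ran from -0.25 to 0.0120 when 1 sample was left out. Gins4, at -0.0897, turned to 0.0220 with library size only, 0.0129 with limma on log2(CPM + 1), 0.0129 with limma on log2(CPM + 0.1); it ran from -0.15 to 0.0320 when 1 sample was left out. Prim1, at -0.0581, turned to 0.0546 with library size only, 0.04996 with limma on log2(CPM + 1), 0.0502 with limma on log2(CPM + 0.1). Rpa1, at 0.0383, turned to -0.00530 with upper-quartile scaling, -0.0916 with length offset, -0.000888 with known genes only, -0.33 with the length offset and Ctrl replicate 1 left out; it ran from -0.18 to 0.21 when 1 sample was left out. Tk1, at -0.0149, turned to 0.0960 with library size only, 0.00711 with no filter, 0.10 with limma on log2(CPM + 1), 0.10 with limma on log2(CPM + 0.1); it ran from -0.0929 to 0.0594 when 1 sample was left out. Chaf1b, at -0.0321, turned to 0.0770 with library size only, 0.0198 with limma-voom, 0.0996 with limma on log2(CPM + 1), 0.10 with limma on log2(CPM + 0.1); it ran from -0.21 to 0.11 when 1 sample was left out. Library size only moved the median of all genes from -0.02 to 0.10, and that of the 45 to 0.19. For transcripts, DESeq2 called 5 against 0, and leaving out 1 sample gave 0 to 1, as it did for usage. Over all genes the calls ran from 3 to 896 when 1 sample was left out. Depth limits Orc1, Pola1, Ccne2, Pole, Pole2 and Rrm2, with 4 to 34 counts a sample.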
